A study of Mus musculus with 4 samples.

Results

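The genes that make and use microRNAs were followed in maps of open chromatin from 10T1/2 cells, a mouse embryonic fibroblast line, with intact or knocked-out Ranbp2. The set held 10 of the 21883 protein-coding genes on assembled chromosomes. They were Drosha, Dgcr8, Dicer1, Tarbp2, Ago1, Ago2, Ago3, Tnrc6a, Tnrc6b and Tnrc6c. A peak was counted for a gene when its summit lay inside the RefSeq gene span of mm10 or within 50 kb of it. The peaks joined into 57 distinct sites out of 39137 regions in all, and 3 of the sites lay in the windows of both Ago1 and Ago3. The genes were chosen by function while peak presence, fold, rank and the deposited differential regions of these libraries were already known, so their values are given as a description with no test. Open chromatin was mapped with ATAC-seq, a method whose transposase inserts adapters into accessible DNA, in 2 wild-type and 2 Ranbp2 knockout libraries made from 50000 cells each. Replicates are numbered 1 and 2 within each genotype, with library numbers of 1 and 3 in wild type and 2 and 3 in knockout. The labels do not say whether the replicates came from separate cultures, so their spread may be technical. The knockout cells came from 1 clone grown out of a single sorted cell after CRISPR-Cas9 cutting with 1 guide, whereas the wild-type cells are not described as a clone. Clone and genotype therefore cannot be told apart.

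A microRNA gene is transcribed into a long hairpin-bearing RNA that Drosha, an RNase III enzyme, and its RNA-binding partner Dgcr8 trim in the nucleus. After export, the RNase III enzyme Dicer1, with the double-stranded RNA-binding protein Tarbp2, cuts the hairpin into a short duplex. One strand is loaded into an Argonaute protein, and the Argonaute holds a glycine- and tryptophan-rich Tnrc6 protein, which calls in the deadenylases that shorten and silence the target mRNA. Ago2 is the Argonaute that can also cut a perfectly paired target. Ranbp2, the nucleoporin removed here, sits on the cytoplasmic side of the nuclear pore and binds Ran, the GTPase that also drives the export of microRNA hairpins.

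Promoter sequences on which the results turn are shown first, because peaks of both genotypes lay in or beside them. Each is the 250 bases before a RefSeq start of GRCm38.p6, the assembly with the primary coordinates of mm10, written 5′ to 3′ on the strand of the gene. They lie at chr15:80711063-80711312 (plus strand, outer start of Tnrc6b), chr15:80798360-80798609 (plus strand, inner start of Tnrc6b), chr15:102517942-102518191 (plus strand, Tarbp2), chr4:126468632-126468881 (minus strand, Ago1) and chr4:126429543-126429792 (minus strand, Ago3). Capitals mark each match on either strand to 10 motifs. Overlapping matches run together. The motifs were the GC box GGGCGG, the CCAAT box CCAAT, CRE TGACGTCA and its shorter core TGACG, the ETS core CCGGAA, the NRF1 motif, YY1 AAGATGGCG, the E box CACGTG, AP-1 TGANTCA and the TATA box TATAAA.
Tnrc6b outer start: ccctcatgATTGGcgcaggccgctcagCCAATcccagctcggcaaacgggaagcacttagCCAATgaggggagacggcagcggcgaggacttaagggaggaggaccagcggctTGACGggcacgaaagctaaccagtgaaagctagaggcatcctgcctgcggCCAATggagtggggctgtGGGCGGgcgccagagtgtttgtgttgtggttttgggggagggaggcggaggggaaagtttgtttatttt
Tnrc6b inner start: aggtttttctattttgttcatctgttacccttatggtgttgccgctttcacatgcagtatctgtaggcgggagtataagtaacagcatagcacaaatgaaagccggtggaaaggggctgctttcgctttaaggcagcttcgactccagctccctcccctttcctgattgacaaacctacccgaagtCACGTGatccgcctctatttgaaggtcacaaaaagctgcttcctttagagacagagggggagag
Tarbp2: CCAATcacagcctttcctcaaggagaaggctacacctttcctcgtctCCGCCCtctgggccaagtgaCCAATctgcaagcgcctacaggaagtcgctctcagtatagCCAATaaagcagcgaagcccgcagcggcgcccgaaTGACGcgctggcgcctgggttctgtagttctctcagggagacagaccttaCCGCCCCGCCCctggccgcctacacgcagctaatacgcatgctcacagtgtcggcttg
Ago1: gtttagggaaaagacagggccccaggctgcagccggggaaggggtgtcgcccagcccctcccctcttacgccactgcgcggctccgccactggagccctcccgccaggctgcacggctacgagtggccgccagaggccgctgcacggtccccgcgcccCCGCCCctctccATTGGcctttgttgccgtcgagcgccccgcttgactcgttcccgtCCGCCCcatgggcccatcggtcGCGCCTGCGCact
Ago3: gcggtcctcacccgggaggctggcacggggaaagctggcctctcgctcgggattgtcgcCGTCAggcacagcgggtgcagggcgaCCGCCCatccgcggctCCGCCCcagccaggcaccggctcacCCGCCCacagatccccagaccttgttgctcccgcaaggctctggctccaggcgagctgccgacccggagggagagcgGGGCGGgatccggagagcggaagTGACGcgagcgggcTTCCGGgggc

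A promoter sequence was found for 9 of the 10 genes, and Ago2 had none in the table used. The listed starts of Tnrc6a, Tarbp2 and Ago3 lie inside the gene spans. That of Tnrc6a is at 123123885, in a span from 123031101 to 123195296. The outer Tnrc6b promoter held 4 CCAAT boxes, the Tarbp2 promoter 3 and the Ago3 promoter 0. Of the 9 promoters before the upstream-most listed start of each gene, 6 held a CCAAT box and 4 held at least 3. Over 17491 protein-coding genes these shares were 36.5% and 3.63%. A GC box was in 6 of the 9, against 42.7% of all promoters, and Ago1 alone among the 9 held the NRF1 motif, which was in 5.32% of all promoters. TGACG was in 5 of 9 and CCGGAA in 2 of 9, against 20.2% and 15.2%. The other 5 motifs were in none of the 9, and the inner Tnrc6b promoter held a single match, to the E box, which 6.65% of all upstream-most promoters had. GC content ran from 42.4% in Tnrc6a to 76.0% in Dicer1, around a median of 55.2% over all promoters, and was 48.0% before the inner Tnrc6b start. The contrast between the Tnrc6b promoters was therefore one of composition as well as of position, with 14 CpG before the outer start and 8 before the inner one. These matches describe letters in the window and were not tested.

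Each site is described by its presence, fold and shared rank. Presence means that the library's own list had a peak there. The fold is the authors' own value for the peak, a ratio of summit signal to nearby background in that library, used to describe peaks within a list. Its median over the 10977 regions present in all 4 lists was 13.6 and 11.2 in the wild-type and 7.97 and 10.1 in the knockout libraries, so folds of different lists are not on one scale. The lists held between 13877 and 33721 peaks, and no read counts were given, so depth is unknown and an absent peak may only lie below a list's threshold. Genotypes were therefore compared by shared rank, the percentile of a site by −log10 q among those 10977 regions, where 100 is the strongest. Near 100 a change in −log10 q moves this rank less than in the middle. Differences at very high ranks are therefore compressed and cannot be set directly against those at middle ranks. The label of the cells was checked at gene ends of marker genes. Of 12 fibroblast genes, 4 (Col1a2, Vim, Fn1 and S100a4) had a gene-end peak in all 4 libraries, against 26.5% of all protein-coding genes. That count alone does not identify the cells. Another 6 had a gene-end peak in some libraries, while Pdgfra and Prrx1 had none. None of 6 epithelial, 5 endothelial or 4 pluripotency genes had one, and of 5 immune and 5 neural genes 2 and 1 had one in a single library.

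Of the 10 genes 9 were open in all 4 libraries at a gene end or a RefSeq start. A gene end here means a summit no more than 1 kb from one or the other end of the span. By that definition 7 of the 10 genes had a site in all 4 lists, against 26.5% of all protein-coding genes. Tarbp2 and Ago3 joined them when the RefSeq start, which lies inside their spans, was used. Of 17491 genes with a listed start, 28.7% had a site there in all 4 lists. That share counts starts alone, and none was computed for gene end or start together. Tnrc6a was the 1 gene of the 10 with neither a gene end nor a start open in all 4 lists. Its listed start, also inside its span, had a peak of fold 10.3 and 7.04 in the wild-type libraries and 6.82 in knockout replicate 2. That start had none in knockout replicate 1, the library with the shortest list. The distance of 1 kb separated a Tnrc6c site 917 bp inside the gene from sites of Tarbp2, Ago2 and Ago3 that lay 1967, 2018 and 2022 bp from an end, each measured from the library summit nearest to that end. At 50 kb the nearest sites inside and outside lay 48.6 kb from Tarbp2, with a peak in 2 libraries, and 54.7 kb from Dgcr8, with a peak in 4.

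**Figure D1:**
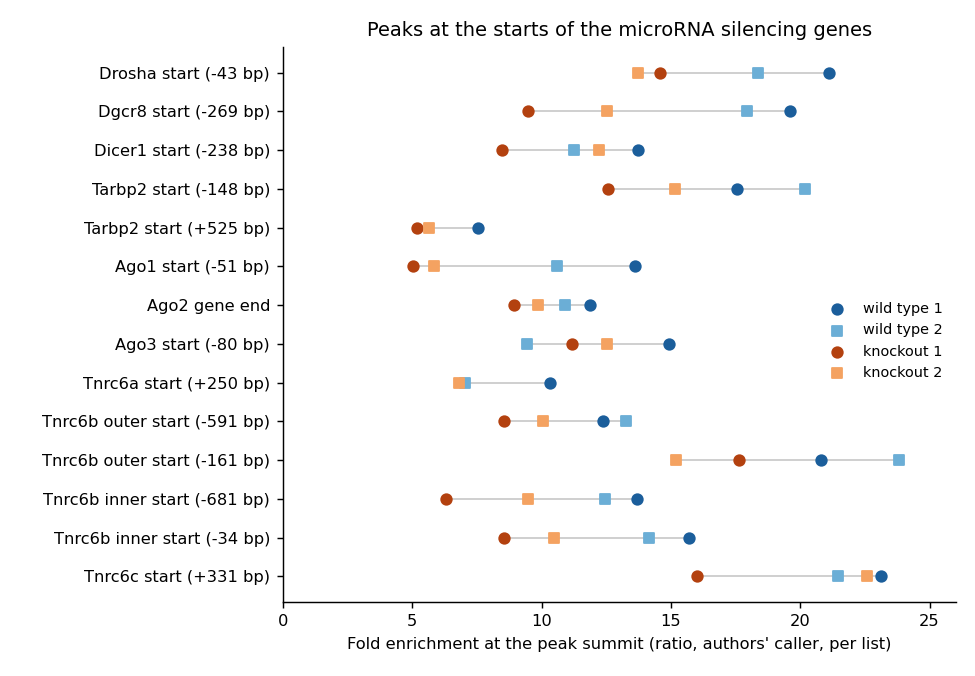
Fold enrichment (ratio at the summit, as the authors' caller gave it) of each library's peak at the starts or gene ends of the 10 genes, with the distance of the summit from the RefSeq start in brackets. Points are libraries and the grey line spans them. Ago1 has both knockout folds, 5.04 and 5.84, far below its wild-type folds of 13.6 and 10.6, and Tnrc6a lacks a point for knockout 1.

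The Microprocessor genes were strongly open in both genotypes. Drosha (gene 14000, chromosome 15, 12824804-12935291) had a peak 43 bp before its start with folds of 21.1 and 18.4 in wild-type and 14.6 and 13.7 in knockout libraries. Its shared ranks of 90.3 and 85.6 overlapped the knockout ranks of 93.04 and 76.7. A site 48.4 kb inside Drosha, away from any listed start, was stronger still in the knockout lists. Its folds were 17.7 and 19.4 in wild-type and 20.2 and 20.9 in knockout libraries. It stood at place 993 of 33721 and 367 of 18511 in the wild-type lists and at 152 of 13877 and 165 of 24292 in the knockout lists. Both knockout shared ranks, 98.6 and 98.5, lay above both wild-type ranks, 91.0 and 96.7, a gap of 4.72 points between the means, which was 1.86 without wild-type replicate 1 and 14.2 when ranked by fold. Dgcr8 (gene 94223, chromosome 16, 18253948-18289251) showed the opposite order at its start. There the folds were 19.6 and 17.9 against 9.48 and 12.5, and the shared ranks were 82.9 and 85.0 in wild-type and 67.3 and 75.0 in knockout libraries. The mean rank was 83.9 ± 1.49 in wild type and 71.1 ± 5.44 in knockout (SD, n = 2 each), a difference of -12.8 points, which was -6.51 without knockout replicate 1.

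Dicer1 and Tarbp2, which act together on the exported hairpin, ranked in opposite orders. Dicer1 (gene 192119, chromosome 12, 104687740-104751968) had its start peak 238 bp upstream, with folds of 13.7 and 11.2 in wild-type and 8.46 and 12.2 in knockout libraries. The shared ranks were 42.4 and 46.1 in wild type and 56.2 and 63.3 in knockout, so both knockout libraries were above both wild-type libraries by a mean of 15.5 points. Tarbp2 (gene 21357, chromosome 15, 102516077-102523676) is a short gene whose start peak, 148 bp upstream in the promoter printed above, was among the strongest in every list. It took places 178 and 143 in the wild-type and 411 and 368 in the knockout lists, with folds of 17.5, 20.2, 12.6 and 15.1. The shared ranks, 98.4 and 98.7 against 96.4 and 96.7, did not overlap. The mean difference was -2.03 points, at ranks where differences are compressed. When regions were ranked by fold instead of −log10 q the Tarbp2 difference changed sign, to 2.17 points. A weaker peak 525 bp after the Tarbp2 start was present in all lists but that of wild-type replicate 2, with folds of 7.54 in wild-type replicate 1 and 5.195 and 5.64 in the knockout libraries.

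The Argonaute genes gave the widest contrast, between neighbours on chromosome 4. Ago1 (gene 236511, 126435012-126468707) and Ago3 (gene 214150, 126326994-126431670) lie head to tail, and their start peaks are 39.1 kb apart. At the Ago1 start, 51 bp upstream, the folds were 13.6 and 10.6 in the wild-type and 5.04 and 5.84 in the knockout libraries. That peak held places 6536 and 6642 in the wild-type lists and 12827 and 15395 in the knockout lists, which for knockout replicate 1 is close to the bottom of its 13877 peaks. The shared ranks were 43.8 and 43.5 in wild type and 3.66 and 5.41 in knockout. The difference of -39.1 points was lower than that of all but 0.893% of the regions present in all 4 lists. At the Ago3 start, 80 bp upstream, the order was reversed. The folds were 14.9 and 9.44 in wild-type and 11.2 and 12.5 in knockout libraries, and the shared ranks were 49.4 and 27.1 against 75.5 and 58.7. The mean rank was 38.2 ± 15.8 in wild type and 67.1 ± 11.9 in knockout (SD, n = 2 each). This difference of 28.9 points was exceeded by 5.03% of shared regions. With 1 library left out at a time, the Ago1 difference ran from -43.0 to -39.1 and the Ago3 difference from 15.6 (without wild-type replicate 2; 18.8 without knockout replicate 1) to 39.8. Ranked by fold they were -40.5 and 29.4 points. Ago4, the remaining Argonaute gene, had no gene-end peak in any list.

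**Figure D2:**
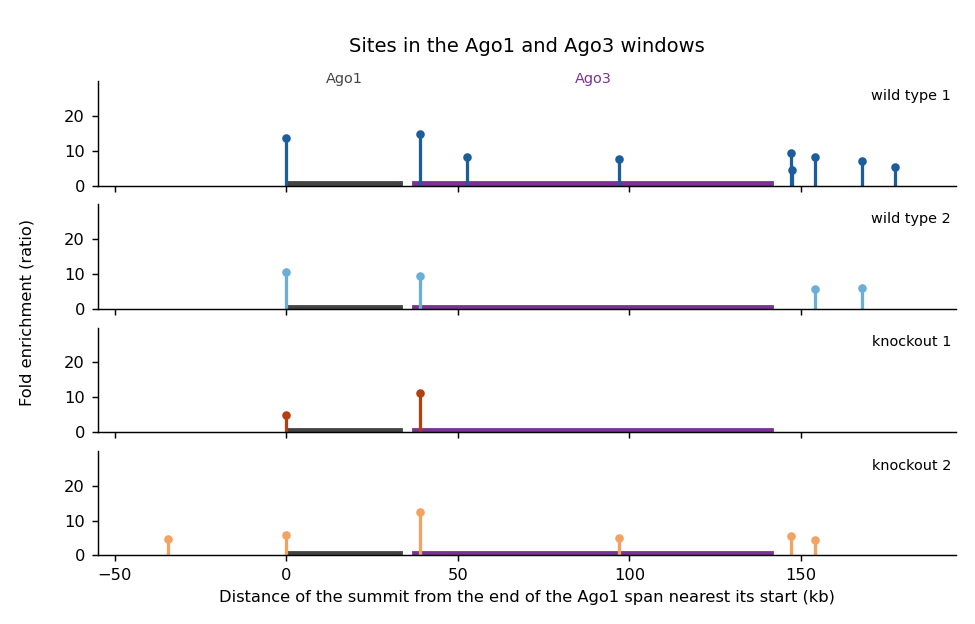
Fold enrichment (ratio) of every peak in the Ago1 and Ago3 windows, 1 panel per library, against distance in kb from the end of the Ago1 span nearest its start. Bars at the base are the gene spans, and the stems at 0 and 39.1 kb are the start peaks of Ago1 and Ago3. In both knockout panels the Ago1 stem is the shorter of the pair, and it is the taller one in wild type 2 only.

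Ago2, the slicing Argonaute, showed opposite orders at its gene end and inside. Ago2 (gene 239528, chromosome 15, 73101625-73184947) had a peak 0.455 kb beyond the upper end of its span with folds of 11.9 and 10.9 in wild-type and 8.93 and 9.86 in knockout libraries. Its shared ranks were 47.0 and 50.1 in wild type and 61.9 and 51.2 in knockout, which did not overlap. The difference was 8.04 points, 13.5 by fold, 2.93 without knockout replicate 1 and 13.2 without knockout replicate 2. Inside the gene, 30.1 kb from that end, a site had folds of 13.6 and 12.04 in wild-type and 5.70 and 7.77 in knockout libraries. Its shared ranks were 70.6 and 71.7 against 24.7 and 42.5, a difference of -37.5 points, lower than that of all but 1.11% of shared regions. Without knockout replicate 1 the difference was -21.7 points. The strongest sites in the Ago2 window lay outside the gene. The gene end of Trappc9, a subunit of a vesicle-tethering complex, had shared ranks of 98.6 and 97.9 in wild type and 97.0 and 97.3 in knockout. These did not overlap, and at ranks this high the difference was -1.17 points, and -0.137 by fold. The gene end of Chrac1, a histone-fold protein of a chromatin remodeller, had ranks of 88.2 and 86.5 in wild type and 69.2 and 78.4 in knockout, a difference of -13.6 points that was -6.54 without knockout replicate 1. An intergenic site 33.9 kb outside Ago2 had ranks from 91.5 to 95.6 with the genotypes interleaved.

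Within the Tnrc6 family, whose proteins bridge Argonautes to the deadenylases, a second start was listed for Tnrc6b alone. The genes were therefore not compared by their number of open starts. Tnrc6c (gene 217351, chromosome 11, 117653703-117763439) had 1 strong start peak, 331 bp downstream of the RefSeq start. Its folds were 23.1, 21.5, 15.99 and 22.6 in wild-type replicates 1 and 2 and knockout replicates 1 and 2, and its shared ranks of 92.6, 94.9, 94.2 and 96.8 overlapped between genotypes. Tnrc6a (gene 233833, chromosome 7, 123031101-123195296) had 8 sites, all inside its span. Of these, 1 was present in all 4 lists, 13.6 kb before the RefSeq start, with shared ranks of 19.4 and 24.1 in wild type and 30.6 and 8.32 in knockout. In wild-type replicate 1, the longest list, all 8 had a peak, and 4 of them had one in no other list.

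Tnrc6b (gene 213988, chromosome 15, 80711313-80941086) had open chromatin at both of its RefSeq starts, which are 87.3 kb apart. The outer start carried the stronger peak, 161 bp upstream, with folds of 20.8 and 23.8 in wild-type and 17.7 and 15.2 in knockout libraries. Its shared ranks, 96.9 and 98.4 in wild type and 97.1 and 91.6 in knockout, overlapped. A second peak 591 bp before the same start had ranks of 70.6 and 82.0 against 65.4 and 68.9, a difference of -9.13 points that became 1.53 when ranked by fold and -3.26, -5.32 and -14.8 without wild-type replicate 2, knockout replicate 1 and wild-type replicate 1. At the inner start the genotypes were further apart in shared rank. The peak 34 bp upstream of it had folds of 15.7 and 14.2 in wild-type and 8.53 and 10.5 in knockout libraries. Its shared ranks were 69.7 and 70.5 in wild type and 51.1 and 47.6 in knockout, with means of 70.1 ± 0.599 and 49.3 ± 2.51 (SD, n = 2 each). The peak 681 bp upstream of the inner start had ranks of 58.3 and 61.3 against 18.4 and 37.0. The differences at the inner start were -20.8 and -32.1 points, lower than those of all but 8.92% and 2.42% of shared regions, and -11.3 and -20.9 points by fold. Without knockout replicate 1 they were -16.8 and -17.6. At the outer start peak the difference was -3.29 points, -1.66 by fold and -0.516 without knockout replicate 2. The outer start peak ranked so high that its difference is compressed, whereas the inner peaks did not. Their differences are therefore not on one footing, and whether the 2 starts differed in their response was not tested. Inside Tnrc6b 2 weaker sites, 51.6 and 117.5 kb after the inner start, had overlapping ranks.

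**Figure D3:**
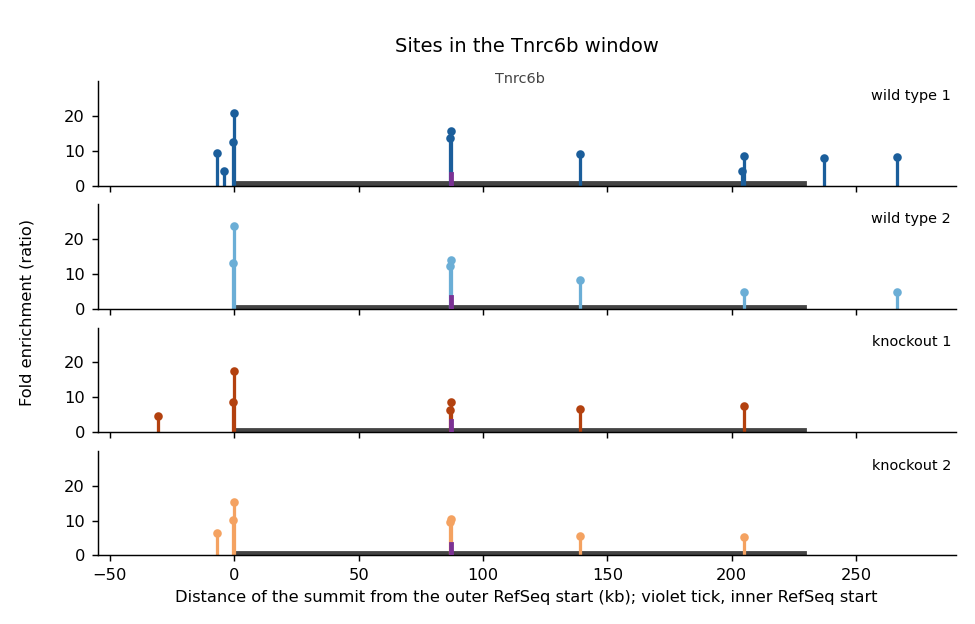
Fold enrichment (ratio) of every peak in the Tnrc6b window, 1 panel per library, against distance in kb from the outer RefSeq start. The dark bar is the gene span and the violet tick at 87.3 kb marks the inner start, where the taller stem is 15.7 and 14.2 in the wild-type and 8.53 and 10.5 in the knockout panels.

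Over all 24 sites present in every list, low ranks in knockout were more frequent than high ones, as they were across chromosome 15. Both knockout ranks lay below both wild-type ranks at 10 sites, against 25.0% of all regions present in the 4 lists. Both lay above at 4 sites, against 22.7%, and the other 10 overlapped. The median difference was -2.70 points, against -0.549 over all shared regions. Ranked by fold, 8 sites were lower and 5 higher in knockout, and the median difference was -0.638 points. Of the 24 sites 15 were on chromosome 15, which holds Drosha, Ago2, Tnrc6b and Tarbp2. There 8 of 15 were lower and 2 higher in knockout, against 40.2% and 15.4% of the 545 shared regions of that chromosome. The median difference of the 15 sites was -3.12 points, that of the whole chromosome -4.70, and 5 of the 15 lay below the chromosome's median. On the other chromosomes 2 of 9 sites were lower and 2 higher. The part of this chromosome-wide shift in the values of its genes was not tested. The Ago1 start, on chromosome 4, stood at -38.5 points after the chromosome median of -0.565 was subtracted, and the site inside Ago2 at -32.8. At starts and gene ends of the 10 genes 6 of 12 sites were lower and 3 higher in knockout. Tnrc6b held 3 of the 6 lower ones. Of all gene-end regions 26.9% were lower and 15.3% higher. The 12 sites also include starts inside the spans of Tarbp2, Ago3 and Tnrc6b, a kind of site that those shares do not cover.

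**Figure D4:**
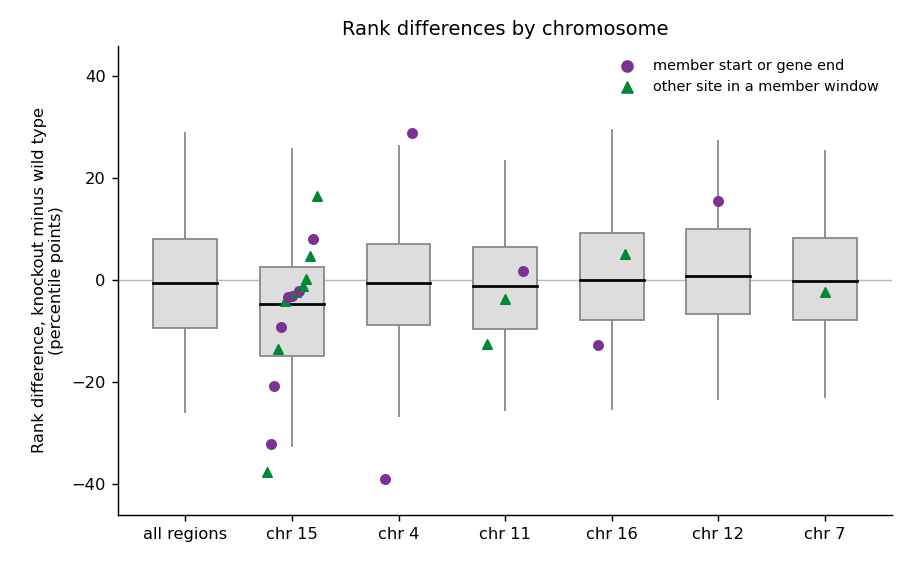
Difference in shared rank, knockout minus wild type in percentile points, for regions present in all 4 lists. Boxes span the quartiles, the black line is the median and the whiskers run from the 5th to the 95th percentile of all regions or of the chromosomes that hold the genes; points are sites of the genes. The Ago1 and Ago3 starts lie beyond opposite whiskers of chromosome 4, and chromosome 15 is shifted down as a whole, with a median of -4.70.

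**Figure D5:**
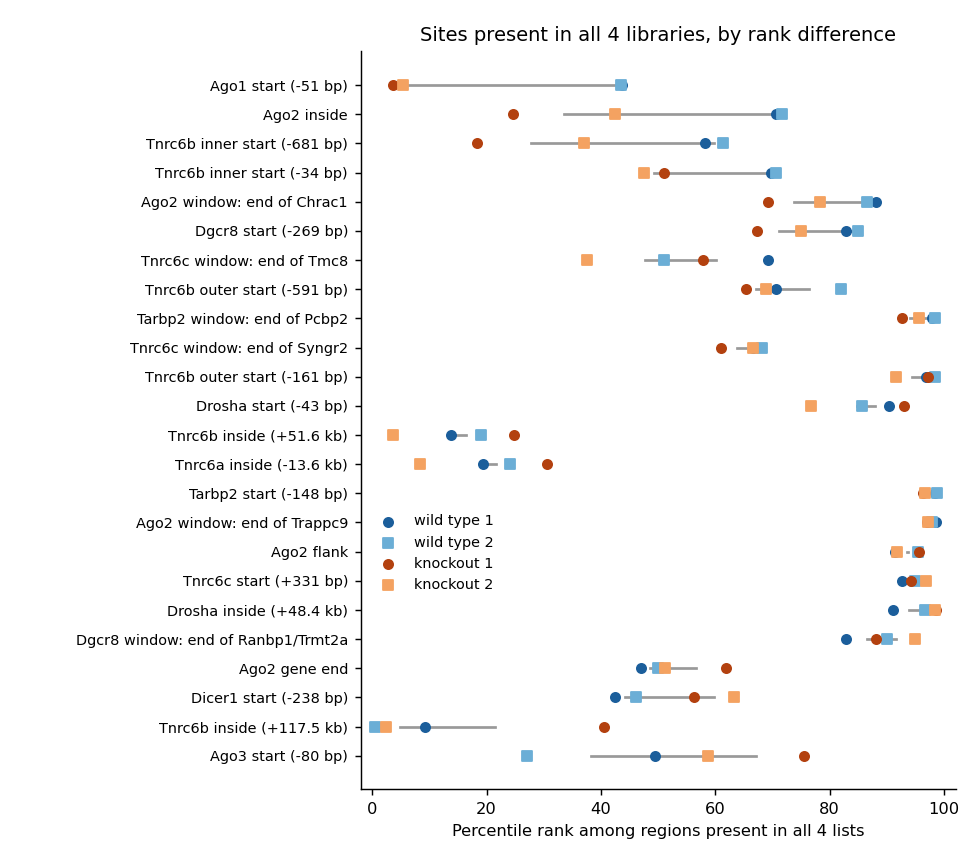
Shared rank (percentile among regions present in all 4 lists) of the 24 sites in each library, sorted by the difference between genotypes from the lowest to the highest. Grey lines join the genotype means. The lines of the Ago1 start and the site inside Ago2 are the longest to the left of wild type, and that of the Ago3 start is the longest to the right.

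The 57 sites comprised 14 at starts or gene ends of the 10 genes, 11 at gene ends of other genes, 19 elsewhere inside the genes and 13 further away. Of these, 12, 6, 5 and 1 were present in all 4 lists, and 0, 2, 9 and 6 in a single list. In all, 24 of 57 sites were in every list and 17 in 1 list, against 28.0% and 40.9% of merged regions. Of the 17 single-list sites 14 were from wild-type replicate 1. The libraries had a peak at 53 and 32 of the sites in wild type and at 27 and 38 in knockout, and at 28, 24, 27 and 23 once every list was reduced to its 13877 best peaks. The order of the libraries by number of sites followed the length of their lists before that reduction and not after it.

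Of the 57 sites, 5 were confined to 1 genotype, with a peak in both of its lists and in neither list of the other. There were 4 with a peak in both wild-type and no knockout list, against 6.52% of merged regions, and 1 with a peak in both knockout and no wild-type list, against 0.953%. The wild-type sites lay 25.9 kb outside Ago3 (folds of 7.02 and 6.08), inside Tnrc6a (5.40 and 5.32), at the gene end of Sgsm3 beyond Tnrc6b (8.09 and 4.83) and 21.01 kb outside Tnrc6c (3.67 and 5.82). The knockout site lay 42.8 kb outside Dicer1 (6.70 and 5.67). At equal list lengths the 4 wild-type sites had no peak left in any list. The knockout site kept only its peak in knockout replicate 1. Of the 31 sites left, 1 was confined to wild type and 0 to knockout, against 6.20% and 5.23% of 19880 merged regions at those lengths. The 1 site lay inside Tnrc6c, with wild-type folds of 8.54 and 6.94. In the lists as deposited it also had a knockout peak of 4.37.

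In the authors' deposited table of 190 wild-type-enriched regions, 22 were on chromosome 15, and 2 of them overlapped sites of these genes, against 0.493% of merged regions. They covered the outer start peak of Tnrc6b (chromosome 15, 80710952-80711351) and the start peak of Tarbp2 (102517844-102518243). Windows of 2.38% of all protein-coding genes held such a region. Both overlaps were on chromosome 15, which held 545 of the 10977 shared regions. The shares given are genome-wide, and none was computed for that chromosome. None of the 189 knockout-enriched regions in the authors' deposited table overlapped a site of the genes, against 0.491% of merged regions and 1.94% of genes. These overlaps were known when the genes were chosen. The sites with the largest rank differences, at the Ago1 start, inside Ago2 and at the inner Tnrc6b start, were in neither deposited table. Within 1 Mb of Tarbp2 the authors' deposited table held 3 more wild-type-enriched regions, nearest to Sp1, a zinc-finger transcription factor 110 kb away, Zfp740 at 312 kb, and Cbx5, the heterochromatin protein HP1 alpha, at 716 kb. Within 1 Mb of Tnrc6b it held 1 region nearest to Mchr1 at 323 kb and 2 nearest to Tef, a PAR-family transcription factor, at 869 and 870 kb.

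The rest of the pathway was read from 81 further genes, of which 47 (58.0%) had a gene-end site in all 4 lists, against 26.5% of all protein-coding genes. Of those 47 genes, 15 had both knockout ranks below both wild-type ranks and 4 had both above, against 26.9% and 15.3% of gene-end regions in all lists, and 28 overlapped. The median difference of -2.20 points can be set beside -1.88 over all gene-end regions. Among 19 deadenylation genes 13 were open in all lists, with 4 lower and 1 higher in knockout. Tob1, an adaptor of the CCR4-NOT deadenylase, had the lowest difference of the list, -33.3 points, from ranks of 46.5 and 53.1 in wild type to 7.76 and 25.1 in knockout. Cnot11, a CCR4-NOT subunit, differed by -23.6 points with overlapping ranks. Cnot6, a catalytic subunit of CCR4-NOT, was higher by 12.3 points, from 71.5 and 66.2 to 87.1 and 75.1. Among 12 genes for Argonaute partners and Ago4 itself, 5 were open in all lists, 3 of them lower and 0 higher. The lowest was Zc3h7a, which encodes an RNA-binding zinc-finger protein, at -25.7 points.

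Of 16 decapping and decay genes 10 were open in all lists, 3 lower and 1 higher in knockout. Eif4e2, a cap-binding protein that blocks translation, had the highest difference of the list, 23.3 points, but its ranks of 42.7 and 20.4 overlapped those of 42.0 and 67.7. Gigyf2, its scaffold partner, lies on the same chromosome with a gene-end peak 113 kb away. Gigyf2 ranks were 77.2 and 89.4 in wild type and 94.6 and 93.8 in knockout, and its site overlapped a knockout-enriched region in the authors' deposited table. Edc3, an enhancer of decapping, was the only gene of the list with its gene end in both wild-type lists alone, with folds of 12.8 and 6.21. Of all merged regions 6.52% had that pattern, and Edc3 was not examined at equal list lengths. Nuclear processing genes counted 8 open in all lists, 1 lower and 1 higher. The lower one was Hnrnpa1, an RNA-binding protein, with ranks of 86.6 and 92.1 in wild type and 56.0 and 82.0 in knockout, and its site overlapped the wild-type-enriched region beside Cbx5 in the authors' deposited table. The higher one was Hnrnpa2b1, by 10.2 points. Of 11 export and loading genes 7 were open in all lists, 3 lower and 1 higher, and Ran itself had ranks of 8.49 and 7.65 in wild type that overlapped those of 4.92 and 28.1 in knockout. Of 10 tailing and turnover genes 4 were open in all lists, 1 lower and 0 higher.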

How the data were processed

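Peaks of 4 ATAC-seq libraries were used, 2 per genotype. Per the submitters' processing notes, the build is mm10, and DiffBind 2.2.12, DESeq2, MACS2, Bowtie2, cutadapt and deepTools took part in roles that are not stated. Peak names show 1 list per library. The authors deposited, per peak, the fold enrichment (a ratio over local background), −log10 p, −log10 q and a score. They also deposited 2 tables of differential regions without values, their making not given in the sources used here.

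Peaks that overlapped by at least 1 bp were merged, and the best peak by −log10 q stood for each library. Shared rank is a percentile among regions present in all 4 lists. Gene spans and promoters came from RefSeq tables of GRCm38.p6, and all 10 symbols matched. The span table has no strand, so either end counts as a gene end. Depth is unknown. No test was made: exact tests of 2 libraries against 2 cannot pass the usual threshold, and the genes and lists were chosen with earlier results of these data known. The text names all 10 genes, their distal sites that overlap a deposited region, occur in 1 genotype only or rank highest, pathway genes at the same conditions or with the 3 largest rank differences each way, and genes with deposited regions within 1 Mb. Other sites and genes named were chosen after their values were seen. The steps were tested on simulated data and run in Python 3.11.15 with pandas 2.3.3 and numpy 2.4.6.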

Additional observations from a re-analysis of the deposited data

How the results depend on the processing

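The results were recomputed with peaks of −log10 q of at least 5, equal list lengths, summits within 150 bp in place of overlap, a 10 kb window, gene ends within 2 kb, ranks by fold, and each library left out, and, chosen after seeing the data, with RefSeq starts. Ranked by fold, the differences at the Tarbp2 start and at the site 591 bp before the outer Tnrc6b start changed sign, to 2.17 and 1.53 points. With the same ranks 8 pathway genes were lower in knockout and their median difference was -0.642, and with gene ends within 2 kb that median was -0.736. The causes were not tested. Shares of all regions lower or higher in knockout were computed only for the 4 full lists ranked by −log10 q. The counts under other settings therefore have no background beside them. Leaving out 1 library makes separation of the genotypes easier by construction. With 1 left out, between 11 and 18 member sites were lower (18 without knockout replicate 1) and 5 to 9 higher in knockout (9 without knockout replicate 2, 7 without wild-type replicate 2), with medians of -3.69 to -0.915. Pathway genes counted 21 to 27 lower and 10 to 12 higher, with medians of -3.50 to -0.171 (-0.171 without knockout replicate 1). The Ago1 start, the site of Tnrc6a and both weaker sites inside Tnrc6b had no value at equal list lengths, and that 117.5 kb after the inner start had none at −log10 q of at least 5, because a peak left a list. No paired analysis was possible because the results come from no test. Neither the replicate numbers nor the library numbers, which match for replicate 2 only, are said to mark a shared culture.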

Other observations

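Neighbouring genes supplied several of the strongest sites in the windows. The divergent gene ends of Ranbp1, a Ran-binding protein that works with the same GTPase as Ranbp2, and Trmt2a, a tRNA methyltransferase, lay 4.96 kb from the span of Dgcr8. Their site had folds of 18.0 and 18.0 in wild-type and 11.99 and 17.8 in knockout libraries and shared ranks of 82.9, 90.03, 88.1 and 94.98, which overlapped between genotypes. The gene end of Pcbp2, a poly(C)-binding protein, lay 45.6 kb from Tarbp2 and had shared ranks of 97.8 and 98.4 in wild type and 92.6 and 95.6 in knockout, a difference of -3.98 points, or -1.80 without knockout replicate 1 and -1.26 by fold. In the Tnrc6c window the gene ends of Tmc8 and Syngr2 had differences of -12.4 and -3.61 points with overlapping ranks. Without 1 library the Tmc8 difference ran from -19.99 (without wild-type replicate 2) to -3.34 and -2.35 (without wild-type replicate 1 and knockout replicate 2). That of Syngr2 ran from -6.36 (without knockout replicate 2) to -0.461 (without knockout replicate 1), and was -7.65 by fold.

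MicroRNA genes also lay in the windows. Mir1306 and the gene of miR-3618 lie inside Dgcr8, whose own transcript is a known substrate of the Microprocessor, Mir185 lies beside Dgcr8 and Mir5113 lies inside Tnrc6b. The nearest site of the respective window was 5.16, 4.84, 38.0 and 8.41 kb away from their hairpins, so no peak summit of the 4 lists lay at these hairpins.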
